A study of Mus musculus with 12 samples.

Results

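The 14-3-3 proteins are a family of small acidic adaptors, and the 7 mouse genes that encode them are described here in cancer cells sorted from lung tumours: Sfn (14-3-3 sigma), Ywhab (beta), Ywhae (epsilon), Ywhag (gamma), Ywhah (eta), Ywhaq (theta) and Ywhaz (zeta). They were taken by symbol, each has 1 row among the 30743 genes and transcripts of the count table, and all 7 passed the filter on low counts. The 12 libraries come from mice of a mixed BL6/129 background, and all groups share the genotype written KT, whose alleles the labels do not spell out. They fall into KT tumours (4 libraries, the reference), KT;Lkb1f/f tumours with floxed Lkb1 (Stk11) alleles (3 libraries), and KT;H11LSL-Cas9 tumours, in which a Cre-dependent Cas9 met guides to Sik genes. The last group has 3 libraries with sgSik1 in the title and 2 with sgSik1-3. The genotype label pools these 5 libraries, called Sik-targeted below. No library has Cas9 with a control guide, so Sik targeting cannot be told apart from the presence of Cas9 and guides. The labels give no age and no promoter for Cre and do not say whether each library is from another mouse, so p-values reflect only how far these libraries spread, and that spread may be technical. They name lentiviral Cre for KT replicates 2 to 4 and not for replicate 1, and guide-targeted tumours can hold cells with different edits.

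A 14-3-3 protein works as a dimer whose 2 grooves bind phosphorylated serine or threonine in a partner, and binding can hold the partner in the cytoplasm, shield a site or bridge proteins. The Lkb1 kinase activates the salt-inducible kinases (SIKs), and SIKs in turn mark the CRTC coactivators and the class IIa histone deacetylases with phosphates at sites that 14-3-3 proteins then bind, keeping both out of the nucleus. Most isoforms are found in nearly every cell type. Sfn is the isoform tied to epithelia, was described as a p53 target and forms mainly homodimers.

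Sfn is a gene with a single exon on chromosome 4 (133600556 to 133602168, minus strand, mouse build GRCm38), with 248 codons. Ywhag and Ywhah both lie on chromosome 5 (135908409 to 135934616, minus strand, and 33018816 to 33027966, plus strand). Ywhaz lies on chromosome 15 (36770770 to 36796929, minus strand), Ywhab on chromosome 2 (163994960 to 164018588, plus strand), Ywhae on chromosome 11 (75732869 to 75765845, plus strand) and Ywhaq on chromosome 12 (21390071 to 21417637, minus strand). Over whole genes, introns and untranslated regions included, these spans follow GENCODE M21. An exon of the antisense gene Gm4419 overlaps Ywhaq, and since the strand setting of the counting is not given in the sources used here, reads of these 2 genes cannot be told apart. Coding sequences of the members are 60.5% (Ywhae and Ywhag) to 78.6% (Ywhag and Ywhah) identical. The longest stretch shared by any pair is 30 bases, shorter than the 100-base reads.

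The promoters of 3 members are shown because 2 of these genes (Sfn and Ywhag) rose in the tumours and the third (Ywhah), which did not pass any test, holds the only full CREB motif among the promoters searched. RefSeq promoter entries (GRCm38.p6) matched 5 members (Sfn, Ywhah, Ywhag, Ywhae and Ywhaq), while Ywhab and Ywhaz had none. Each line gives the 250 bases before the RefSeq start, 5′ to 3′ on the gene's strand. Capitals mark CCAAT in Sfn, the CREB motif TGACGTCA in Ywhah, and in Ywhag the reverse complement of its half-site TGACG.
Sfn, chr4:133602169-133602418, minus strand: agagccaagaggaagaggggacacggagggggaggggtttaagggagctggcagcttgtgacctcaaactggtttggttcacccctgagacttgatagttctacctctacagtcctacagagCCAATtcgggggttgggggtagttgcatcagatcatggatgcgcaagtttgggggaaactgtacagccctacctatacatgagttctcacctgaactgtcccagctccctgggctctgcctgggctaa
Ywhah, chr5:33018566-33018815, plus strand: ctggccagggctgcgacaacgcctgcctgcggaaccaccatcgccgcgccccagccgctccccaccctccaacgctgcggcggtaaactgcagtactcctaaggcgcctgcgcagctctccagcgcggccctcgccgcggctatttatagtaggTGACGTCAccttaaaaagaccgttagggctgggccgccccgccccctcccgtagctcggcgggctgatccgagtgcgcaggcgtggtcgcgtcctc
Ywhag, chr5:135934642-135934891, minus strand: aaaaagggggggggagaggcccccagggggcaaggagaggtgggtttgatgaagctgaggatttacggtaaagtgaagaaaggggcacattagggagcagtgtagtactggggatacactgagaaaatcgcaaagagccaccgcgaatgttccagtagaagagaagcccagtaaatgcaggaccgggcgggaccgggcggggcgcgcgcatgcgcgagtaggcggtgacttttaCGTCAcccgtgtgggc

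Both strands were searched over each 300-base RefSeq window (250 bases before the start to 50 after) for TGACGTCA, its half-site TGACG (which lies inside it), the CCAAT box, the AP-1 motif TGANTCA, the GC box motif GGGCGG and the p53 half-site. The Sfn window held CCAAT at bases -128 to -124 from the start, and the letters of the other motifs were not in it. CCAAT is in 37.4% of 32817 such promoters. TGACGTCA stood in Ywhah at -96 to -89 and is in 1.79% of promoters, and TGACG stood in Ywhag at -16 to -12 and is in 20.8%. Among the 250 upstream bases Sfn had 3 CpG dinucleotides at 54.4% GC, while Ywhag had 16, Ywhaq 24, and Ywhae and Ywhah 29 each. The median of all promoters was 6 CpG dinucleotides at 52.4% GC. The matches describe letters and were not tested as binding sites.

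Library totals lay between 3847760 and 13955181 counts. Genes with a count numbered 23582 and 23747 in KT replicates 2 and 3 and 14283 to 16533 in the other libraries. These 2 were also the most alike pair within a group. The chi-square of their counts per degree of freedom was 17.4, against 42.3 to 491 for other pairs. Whether they share a source is not stated, so KT may hold fewer than 4 independent units. The 4 most abundant transcripts, among them ribosomal and Malat1 RNA, took 27.5% to 74.2% of counts. Levels are therefore given as CPM, counts scaled to the library size, with TMM factors that set libraries on a common scale and ranged from 0.394 (sgSik1 replicate 1) to 1.89 (KT replicate 3). Stk11 stood at 30.9 to 44.6 CPM in KT and 9.23 to 16.5 in Lkb1-deleted libraries, and Sik3 at 26.6 to 46.6 in KT and a median of 11.9 in Sik-targeted libraries, where each library was below each KT library. Sik1 rose in Sik-targeted libraries, and RNA counts need not show a Cas9 edit. The labelled lung cancer cells had Epcam at 118 to 387 CPM and Nkx2-1 at 137 to 410, and leukocyte Ptprc at 0 to 7.82. In bulk cells, fewer cells of a type and less RNA per cell cannot be told apart.

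Sfn was the member that moved furthest. KT replicates 1 to 4 had 8.48, 4.21, 9.52 and 7.63 CPM of it, a low level beside the other members, which ran from 34.1 CPM (Ywhaq) to 727 (Ywhaz) in KT. In Lkb1-deleted replicates 1 to 3 it stood at 234, 28.2 and 78.7 CPM. The sgSik1 replicates gave 87.5, 114 and 22.7 CPM, and the sgSik1-3 replicates 310 and 118. Each of the 8 Lkb1-deleted and Sik-targeted libraries lay above each KT library, but within these groups Sfn spread over a range that the KT libraries did not show.

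With Lkb1 deletion Sfn rose 15.1-fold (log2 3.92, SE 0.76, edgeR quasi-likelihood adjusted p 0.032; 113 ± 107 CPM, SD, n = 3, against 7.46 ± 2.30, n = 4). With Sik targeting it rose 17.4-fold (log2 change 4.12, SE 0.74, adjusted p 0.00459), to 130 ± 107 CPM (n = 5). Both comparisons use the same 4 KT libraries. Left out in turn, KT replicates 1 to 4 gave the Lkb1 comparison adjusted p 0.0918, 0.12, 0.107 and 0.0661, and leaving out sgSik1-3 replicate 2 gave 0.0528. Without Lkb1-deleted replicate 1, the highest of its group, the change was 2.85 with adjusted p 0.0662. The Sik comparison passed with each library left out and was lowest without sgSik1-3 replicate 1 (3.51). Without KT replicates 2 and 3 together the changes were 3.84 and 4.00 and neither passed (adjusted p 0.396 and 0.0993).

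**Figure D1:**
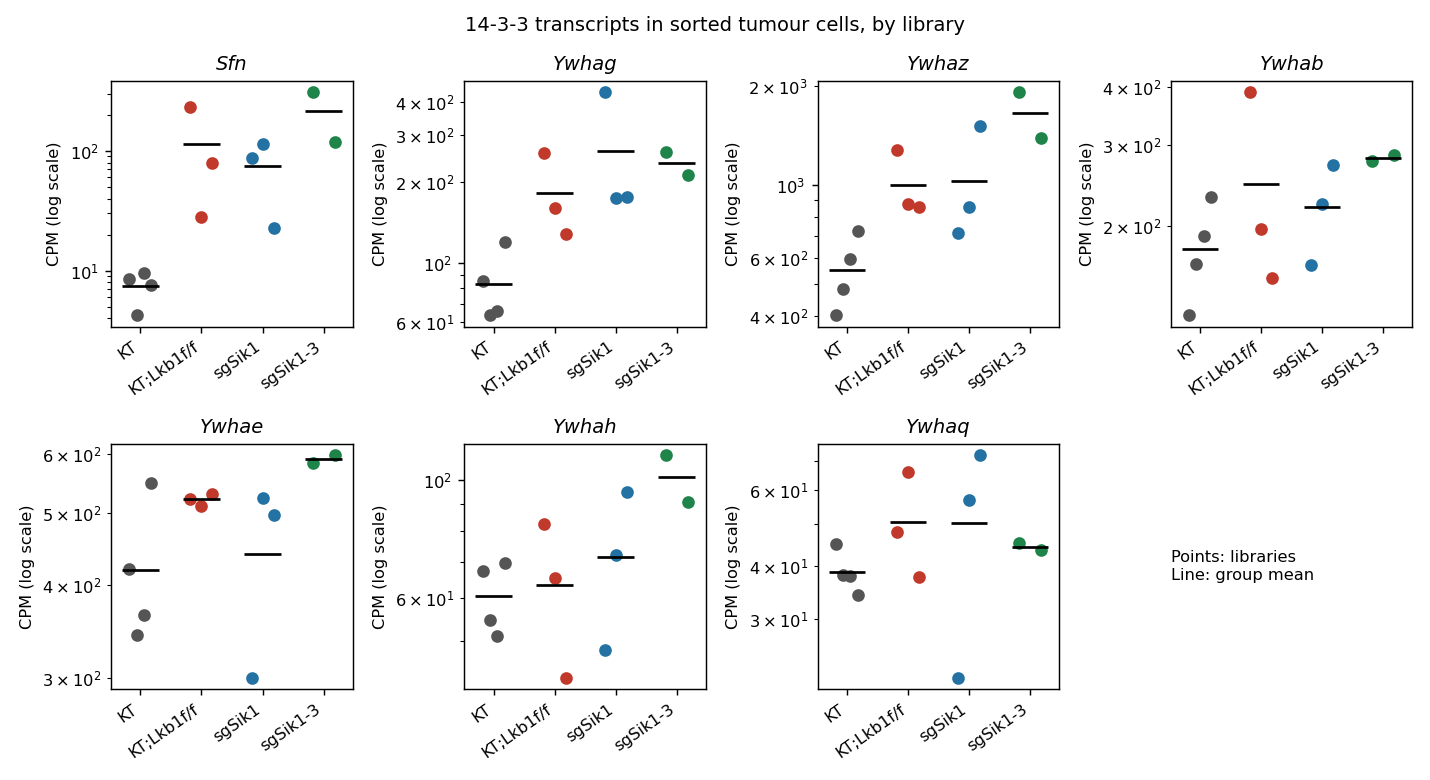
CPM (log axis) of the 7 genes in each library (points), with group means (lines), for KT, KT;Lkb1f/f, sgSik1 and sgSik1-3 tumours. Sfn lies at 4.21 to 9.52 CPM in KT and at 22.7 to 310 in the other libraries, while Ywhae stays between 300 and 598 throughout.

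Ywhag, an isoform abundant in brain and muscle, stood at 85.0, 63.3, 65.8 and 120 CPM in KT and at 257, 161 and 128 in Lkb1-deleted libraries. The sgSik1 replicates gave 436, 174 and 177 CPM, and the sgSik1-3 replicates 260 and 214. On the TMM scale all 8 libraries with Lkb1 or Sik alleles hit lay above the 4 KT libraries, with the smallest gap between KT replicate 4 and Lkb1-deleted replicate 3. Ywhag was 3.01 times as high with Sik targeting as in KT (log2 change 1.59, SE 0.36, edgeR adjusted p 0.0128), at 252 ± 108 CPM (n = 5) against 83.5 ± 26.1 (n = 4). It did not pass without KT replicate 2 (adjusted p 0.0548), KT replicate 3 (0.0522) or both (0.219). With Lkb1 deletion its change was 1.12 (SE 0.39, adjusted p 0.198), which did not pass.

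Ywhaz, one of the most abundant isoforms and a binding partner of many kinases, stood at 402, 485, 597 and 727 CPM in KT. Lkb1-deleted libraries had 1285, 875 and 857 CPM. The sgSik1 replicates gave 714, 857 and 1518 CPM, and the sgSik1-3 replicates 1920 and 1390. On the TMM scale the Lkb1-deleted libraries did not overlap KT, while sgSik1 replicate 1 lay just under KT replicate 4. Ywhaz was 2.30 times as high with Sik targeting as in KT (log2 change 1.20, SE 0.36, edgeR adjusted p 0.039), at 1280 ± 494 CPM (n = 5) against 553 ± 141 (n = 4). That call lies near the threshold: it was not made without KT replicate 1, 2, 3 or 4 (adjusted p 0.099, 0.128, 0.0997 and 0.0557), sgSik1 replicate 3 (0.0799) or sgSik1-3 replicate 1 or 2 (0.0892 and 0.0771). Nor was it made with no low-count filter (0.0618) or with only these 2 groups fitted (0.0522). With Lkb1 deletion the Ywhaz change was 0.86 (SE 0.39, adjusted p 0.36).

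The remaining 4 members did not pass in any comparison. Ywhae, the isoform nearest to those of yeast and plants, stood at 342 to 548 CPM in KT and 510 to 531 in Lkb1-deleted libraries. The sgSik1 libraries lay at 300 to 523 CPM, and both sgSik1-3 libraries (583 and 598) lay above every other one. The Ywhae change was 0.31 (SE 0.32, adjusted p 0.755) with Lkb1 deletion and 0.25 (SE 0.29, adjusted p 0.609) with Sik targeting. Ywhab, which binds Raf kinases, ranged over 128 to 231 CPM in KT, 155 to 390 in Lkb1-deleted and 165 to 285 in Sik-targeted libraries, with changes of 0.46 (SE 0.36) and 0.45 (SE 0.32). Without Lkb1-deleted replicate 1, which held the 390 CPM, the first was -0.02. Ywhah ranged over 50.9 to 69.7 CPM in KT, 42.6 to 82.6 in Lkb1-deleted and 48.0 to 111 in Sik-targeted libraries (changes 0.06, SE 0.34, and 0.45, SE 0.30). Ywhaq, named from T cells, ranged over 34.1 to 44.9, 37.6 to 66.1 and 21.9 to 72.5 CPM (0.38, SE 0.37, and 0.30, SE 0.32), with the strand limit given above. These misses do not show equal levels, since an SE near 0.3 leaves room for changes of the size seen.

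As a group, 1 of 7 members (Sfn) rose and none fell with Lkb1 deletion, where 1.16% of 13575 tested genes passed in either direction and 0.611% rose. With Sik targeting 3 of 7 (Sfn, Ywhag and Ywhaz) rose and none fell, where 12.4% passed and 5.81% rose. DESeq2, which called 4.07% and 18.6% of genes in these comparisons, called the same members. No member passed without KT replicates 2 and 3, where 0.0226% and 0.74% of genes did with edgeR. By group overlap on the TMM scale, 3 members (Sfn, Ywhag and Ywhaz) had all Lkb1-deleted libraries above all KT libraries, as had 6.5% of genes, and 2 (Sfn and Ywhag) had all Sik-targeted libraries above them, as had 7.37%. Scaled by library totals, only Sfn kept this in both. Ywhag then overlapped KT (106 to 141 CPM) through Lkb1-deleted replicate 3 (108) and sgSik1 replicate 2 (133). Ywhaz overlapped KT with Lkb1 deletion (727 to 1118 CPM against 665 to 1127), and Ywhae and Ywhah had all Lkb1-deleted libraries below KT. The members' median changes were 0.46 and 0.45, beside medians of -0.04 and -0.03 over all tested genes. All 7 changes were above 0 in both comparisons on the TMM scale, where 47.7% and 48.1% of all genes were. With library totals in place of TMM factors, Ywhab, Ywhae, Ywhah and Ywhaq fell below 0 in both, and the median of all genes itself moved to -0.78 and -1.05. On that scale, where 1.14% and 33.1% of genes passed, Sfn stood at 3.07 (adjusted p 0.0406) and 2.96 (0.00516), while Ywhag (0.47, adjusted p 0.276) and Ywhaz (0.31, adjusted p 0.572) were not called with Sik targeting. Relative to the median gene, the changes with Sik targeting were alike on both scales: 4.15 and 4.01 for Sfn, 1.62 and 1.52 for Ywhag, and 1.23 and 1.36 for Ywhaz.

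**Figure D2:**
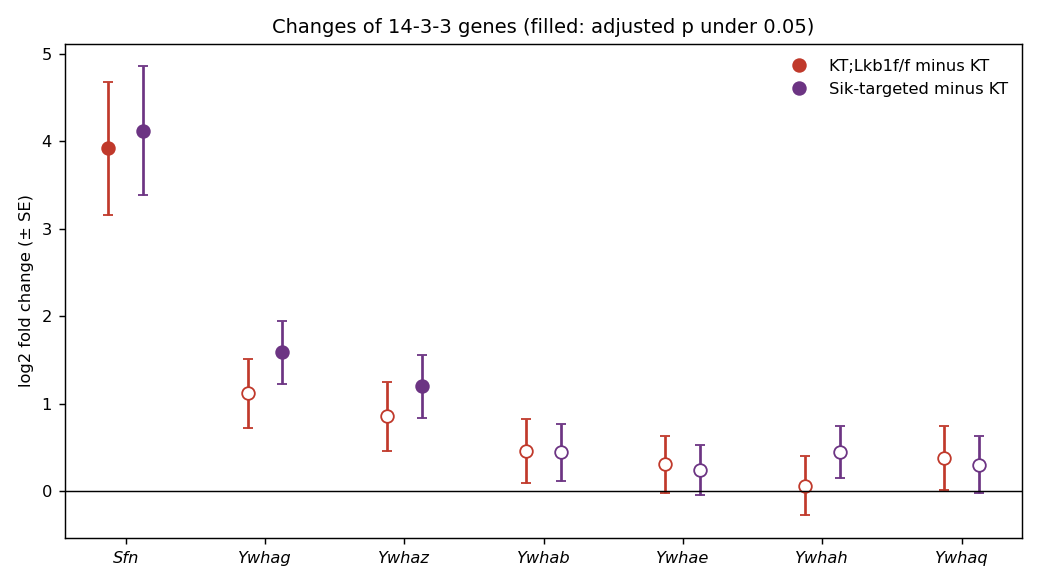
Log2 change (± SE) of the 7 genes on the TMM scale, KT;Lkb1f/f minus KT and Sik-targeted minus KT, with filled points for adjusted p under 0.05. Sfn lies near 4 in both comparisons, Ywhag and Ywhaz at 1.59 and 1.20 with Sik targeting, and the points of Ywhab, Ywhae, Ywhah and Ywhaq, open and between 0.06 and 0.46, lie below 0 when libraries are scaled by their totals.

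Lkb1-deleted and Sik-targeted libraries were compared directly in the same fit. None of the 7 members passed with edgeR (none at an unadjusted p under 0.05, and none with DESeq2), where 0.221% of genes passed with edgeR and 2.54% with DESeq2. The Sfn difference, Lkb1-deleted minus Sik-targeted, was -0.20 (SE 0.68, adjusted p 0.934), that of Ywhag -0.47 (SE 0.38, adjusted p 0.65) and that of Ywhaz -0.35 (SE 0.38, adjusted p 0.755). The sign of the Sfn difference turned when some single libraries were left out (-1.30 to 0.41). With 3 and 5 libraries of this spread, a difference of several fold in Sfn was not detectable.

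The 2 kinds of Sik targeting were then set against KT in a fit of 4 title groups. For sgSik1, 2 of 7 members rose, where 3.84% of 15303 tested genes passed and 2.71% rose: Sfn by 3.34 (SE 0.67, edgeR adjusted p 0.0151) and Ywhag by 1.66 (SE 0.41, adjusted p 0.0336). The Sfn call was not made without KT replicate 2 (adjusted p 0.0634) or sgSik1 replicate 1 (0.119). The Ywhag call was not made without KT replicate 1, 2 or 3 (0.073, 0.118 and 0.112) or without sgSik1 replicate 1 (1.06, adjusted p 0.162), the library at 436 CPM. Ywhaz did not pass for sgSik1 (0.92, SE 0.38, adjusted p 0.166), nor in any of 12 fits with a library left out. For sgSik1-3, 1 of 7 rose, where 2.89% of genes passed and 1.74% rose: Sfn by 4.85 (SE 0.74, adjusted p 0.0044; 214 ± 136 CPM, n = 2, 28.9-fold). Without sgSik1-3 replicate 1 its change was 4.00 (adjusted p 0.0503), with the lone library assumed to vary like the other groups. Ywhaz (1.59, adjusted p 0.0511) and Ywhag (1.52, adjusted p 0.0749) missed the threshold there. Beside KT, on the TMM scale 6 of 7 members (all but Ywhaq) had both sgSik1-3 libraries above all KT libraries, as had 15% of all genes. Scaled by library totals, only Sfn and Ywhag did. Ywhaz and Ywhah then overlapped KT, while Ywhab and Ywhae lay below every KT library (Ywhae 436 and 416 CPM against 572 to 696).

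Between sgSik1-3 and sgSik1 no member passed with edgeR (none at an unadjusted p under 0.05 and none with DESeq2), and of the 15303 genes 0% did (528 genes at an unadjusted p under 0.05, and 6, or 0.0392%, with DESeq2). The Sfn difference was 1.51 (SE 0.75, unadjusted p 0.0608, adjusted p 1), with 118 and 310 CPM in sgSik1-3 against 22.7 to 114 in sgSik1, so the libraries did not overlap. The same held for Ywhab and Ywhae, and for 6.39% of genes. Scaled by library totals, Sfn (232 and 81.9 CPM in sgSik1-3 against 29.8 to 87.0 in sgSik1), Ywhab and Ywhae did overlap. All 5 libraries carry the same genotype label, and which guides the title sgSik1-3 stands for is not stated in it.

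Ratios of counts within a library do not depend on how libraries are scaled, and they show how the isoforms moved against each other. Ywhae served as the denominator as the member with the smallest range over the 12 libraries (2.00-fold, against 73.6-fold for Sfn, 6.88 for Ywhag and 4.78 for Ywhaz), so it was picked with these levels known and the ratios carry no test. The ratio of Sfn to Ywhae was 0.0123 to 0.0261 in KT, 0.0552 to 0.447 in Lkb1-deleted and 0.0457 to 0.532 in Sik-targeted libraries. The ratio of Ywhag to Ywhae was 0.181 to 0.219 in KT, 0.241 to 0.492 in Lkb1-deleted and 0.333 to 1.45 in Sik-targeted libraries. Neither overlapped KT in any library. The ratio of Ywhaz to Ywhae was 0.956 to 1.64 in KT and met the lowest values of the other groups (1.62 and 1.64). Set against Ywhab, Ywhaz held a narrow 2.93 to 3.15 in KT, against 3.29 to 5.54 in Lkb1-deleted and 3.84 to 6.94 in Sik-targeted libraries. Separation from KT depended on the denominator. Ywhag to Ywhab was 0.346 to 0.664 in KT and overlapped Lkb1-deleted (0.658 to 0.827) and Sik-targeted libraries (0.653 to 2.64). Sfn to Ywhaz was 0.00868 to 0.0211 in KT, 0.0322 to 0.182 in Lkb1-deleted and 0.0149 to 0.161 in Sik-targeted libraries, where it overlapped KT. A ratio shows unequal change and not which member moved.

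**Figure D3:**
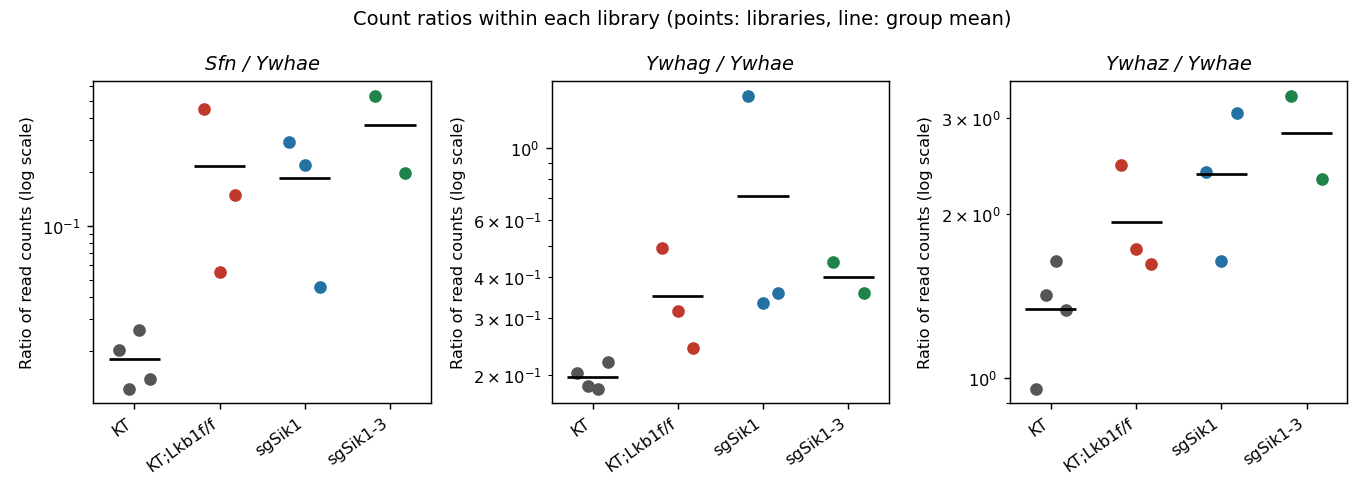
Ratio of read counts to Ywhae within each library (points, log axis) and group means (lines). For Sfn and Ywhag all KT libraries lie below all others; for Ywhaz KT replicate 3 (1.64) reaches the lowest values of the other groups.

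Levels of different members can be set side by side only per length, and RPKM on exon lengths of GENCODE M21 were used for that. By the median over 12 libraries the order was Ywhaz (248 RPKM), Ywhae (246), Ywhab (69.8), Ywhag (47.6), Ywhah (38.9), Sfn (33.1) and Ywhaq (17.1). Ywhae stood above Ywhab in 12 of 12 libraries and Ywhab above Ywhag in 11. The other neighbours were not separated: Ywhaz was above Ywhae in 6 of 12, Ywhag above Ywhah in 7, Ywhah above Sfn in 6 and Sfn above Ywhaq in 6. That mixture follows the groups, since in KT Ywhaz was above Ywhae, Ywhag above Ywhah and Sfn above Ywhaq in 0 of 4 libraries each. Sfn made up 0.943% ± 0.313 of the summed RPKM of the 7 members in KT (n = 4), 7.92% ± 5.77 in Lkb1-deleted (n = 3) and 8.44% ± 4.85 in Sik-targeted libraries (n = 5). Ywhae made up 40.1% ± 3.76, 32.3% ± 7.16 and 26.6% ± 4.54. The summed CPM of all 7 on the TMM scale was 1153 to 1737 in KT, 1829 to 2818 in Lkb1-deleted and 1772 to 3505 in Sik-targeted libraries. Scaled by library totals, the sums of both groups overlapped those of KT, so this separation depends on the scaling.

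**Figure D4:**
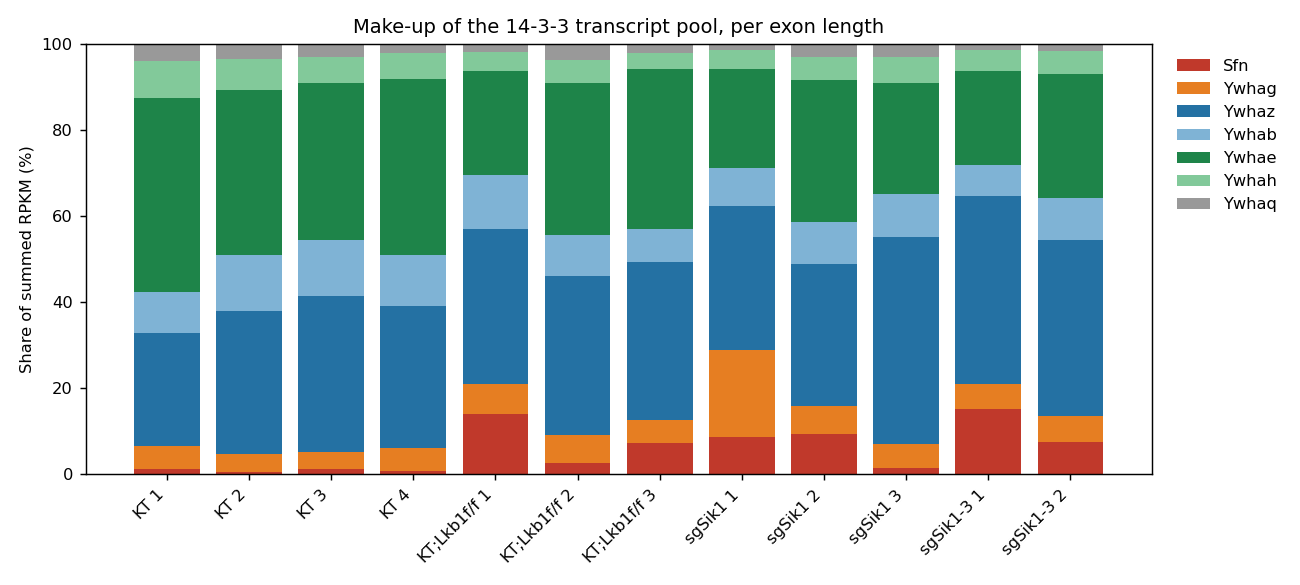
Share of each member in the summed RPKM of the 7 members, by library (stacked bars, percent). Sfn takes 0.614% to 1.24% in the KT libraries and 1.54% to 15.1% in the others.

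Across the 12 libraries, which share their groups and TMM scaling, log2 CPM of Sfn followed Ywhag (Pearson r 0.81, Spearman rho 0.85) and Ywhaz (0.75, 0.71) most closely among members, and Ywhaq least (0.06, 0.27). Over 10119 other genes with a mean of at least 2 CPM, those most like Sfn were Dnmt1, the maintenance DNA methyltransferase (r 0.95, rho 0.91), F2rl1, a protease-activated receptor (0.94, 0.92), Hsp90ab1, a constitutive Hsp90 (0.93, 0.91) and St3gal5, a sialyltransferase (0.93, 0.89). Mapk1ip1l, the histone demethylase Kdm6b, Tmem2 and the Rag GTPase Rraga followed at 0.92. Dnmt1 went from 28.1 CPM on average in KT to 55.1 in Lkb1-deleted, 68.4 in sgSik1 and 83.0 in sgSik1-3 libraries. Nearest to Ywhag were the early-response gene Ier3, zyxin (Zyx) and the ERK phosphatase Dusp6, each at 0.97, and nearest to Ywhaz were Rac1 (0.95), Ube2k (0.94) and Galnt5 (0.93). The members that did not pass had other neighbours: Slit2 (0.95), Atf6 and Emp1 (0.93 each) for Ywhab, Hnrnpab (0.98), Stk39 and Atp6ap1 (0.90 each) for Ywhae, Ly6a (0.94), Atp1b3 and Pitpna (0.92 each) for Ywhah, and Lmbrd1, Creb1 (0.94 each) and Atl2 (0.93) for Ywhaq. Without sgSik1 replicate 1 Stk39 and Atp6ap1 ranked 75 and 96 for Ywhae, and the other genes named stayed within the first 20 of their member. These are descriptions over 12 libraries with no test.

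The proteins that 14-3-3 proteins bind through SIK sites were looked at as transcripts. None of the 7 (Crtc1, Crtc2, Crtc3, Hdac4, Hdac5, Hdac7 and Hdac9) passed with Lkb1 deletion with edgeR or DESeq2 (median change 0.30; Crtc3, of smallest p, 0.76, SE 0.39, adjusted p 0.427, unadjusted 0.0679). With Sik targeting 1 rose and 1 fell, 2 of 7 where 12.4% of all genes passed (median change 0.22). Hdac4 rose by 1.53 (SE 0.47, adjusted p 0.0437; 50.2 ± 42.7 CPM, n = 5, against 17.2 ± 4.51, n = 4), a call made in 5 of 12 fits with a library left out. Hdac9 fell by 3.32 (SE 0.80, adjusted p 0.0165; 0.835 ± 0.824 CPM against 8.04 ± 3.66). On library totals none of the 7 rose and 4 fell, and there the median of all genes lay at -1.05, as given above. The values are RNA levels and say nothing of phosphorylation or binding.

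Of 20 clients in kinase and growth signalling, none passed with Lkb1 deletion with edgeR (median 0.04), and 2 rose and 1 fell with Sik targeting (median 0.32), 3 of 20 where 12.4% of all genes passed, a share near that background. Zfp36 (tristetraprolin, which destabilises AU-rich mRNAs) rose by 2.05 (SE 0.48, adjusted p 0.0147) and the Rab GTPase-activating protein Tbc1d1 by 1.90 (SE 0.53, adjusted p 0.0296). Its relative Tbc1d4, an Akt substrate in glucose transport, fell by 1.86 (SE 0.43, adjusted p 0.0143). With Lkb1 deletion Zfp36 changed by 2.06 (SE 0.52, adjusted p 0.0742). On library totals none rose and 6 fell, Tbc1d4 among them. Of 9 nuclear clients, among them the Foxo factors, Yap1 and Wwtr1, only Mlxip, a glucose-sensing factor, rose with Sik targeting (0.94, SE 0.28, adjusted p 0.0392; -0.08 on library totals). Of 6 cell-cycle clients Wee1, the kinase that restrains Cdk1, fell by 2.15 (SE 0.40, adjusted p 0.005), from 24.2 ± 5.71 CPM (n = 4) to 5.43 ± 2.95 (n = 5), and its change with Lkb1 deletion was -1.28 (SE 0.46, adjusted p 0.21). Of 9 tested cytoskeletal clients the simple-epithelial keratins rose with Sik targeting, Krt8 by 1.94 (SE 0.45, adjusted p 0.0139) and Krt18 by 2.02 (SE 0.37, adjusted p 0.00475), 2 of 9 where 5.81% of genes rose, and with Lkb1 deletion Krt18 changed by 1.24 (SE 0.40, adjusted p 0.155). On library totals neither keratin passed, while 5 other cytoskeletal clients fell. With each library left out in turn, the Sik calls of Tbc1d4, Wee1 and Krt18 were made in 12 of 12 fits, that of Zfp36 in 11, Krt8 in 10, Mlxip in 5 and Tbc1d1 in 4.

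Among kinases that make 14-3-3 sites, none of 18 in the LKB1 pathway passed with Lkb1 deletion with edgeR (median 0.25; Sik2, of smallest p, 1.53, SE 0.38, adjusted p 0.0692). With Sik targeting 2 rose and 2 fell (median -0.26), 4 of 18 where 12.4% of all genes passed: Sik1 (2.24, SE 0.45, adjusted p 0.0078), Sik2 (1.22, SE 0.34, adjusted p 0.0328), Sik3 (-1.33, SE 0.34, adjusted p 0.0209) and Prkaa2, a catalytic AMPK subunit (-3.08, SE 0.60, adjusted p 0.00669). On library totals none of the 18 rose, Sik1 and Sik2 included, and 6 fell. Of 17 other kinases with such sites, among them the Akt, Pim and protein kinase D genes, none passed with Lkb1 deletion (Sgk1, of smallest p, 1.41, SE 0.35, adjusted p 0.0712). With Sik targeting Rps6ka1, an ERK-activated kinase, rose by 1.80 (SE 0.46, adjusted p 0.022) and the calmodulin kinase Camk1 fell by 1.70 (SE 0.35, adjusted p 0.00821), 2 of 17 and so near the background of 12.4%, while on library totals none rose and 4 fell. With a library left out, Sik1, Prkaa2 and Camk1 were called in 12 of 12 fits, Rps6ka1 in 9, Sik3 in 8 and Sik2 in 4. DESeq2 called 2 rises and 1 fall among signalling clients, 2 rises in the LKB1 pathway and 1 rise among the other kinases with Lkb1 deletion. Without sgSik1 replicate 1 edgeR called 2 rises, then 2 rises and 1 fall, and 1 rise in the same lists and comparison. No gene of these 7 lists passed in either comparison without KT replicates 2 and 3.

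**Figure D5:**
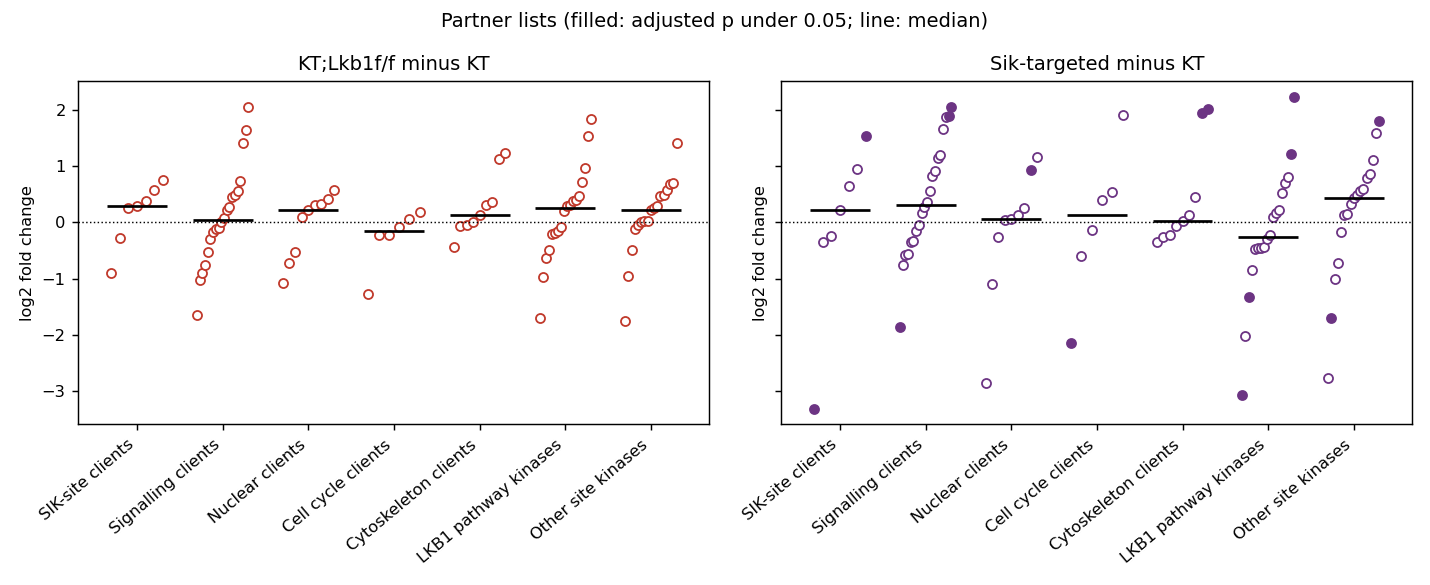
Log2 changes of the tested genes in 7 lists of 14-3-3 clients and site kinases (points; filled, adjusted p under 0.05; line, list median), KT;Lkb1f/f minus KT on the left and Sik-targeted minus KT on the right. No point is filled on the left, and 15 are filled on the right, from Hdac9 at -3.32 to Sik1 at 2.24.

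Sfn is known as a p53 target and as an epithelial gene, so both settings were examined. Of 19 p53 targets 1 rose with Lkb1 deletion, where 0.611% of genes rose (Plk2, 1.87, SE 0.41, adjusted p 0.0414; median of the list 0.41). With Sik targeting 2 rose and 1 fell (median 0.39), 3 of 19 and near the 12.4% of all genes that passed: Cdkn1a, the p21 inhibitor (2.87, SE 0.68, adjusted p 0.0152; 972 ± 1230 CPM, n = 5, against 132 ± 50.4, n = 4), the death receptor Tnfrsf10b (1.37, SE 0.37, adjusted p 0.0259) and Sesn1 (-1.43, SE 0.41, adjusted p 0.0328). Without sgSik1 replicate 1 the Cdkn1a change was 1.68, and it did not pass without KT replicate 2 or 3. With a library left out, Tnfrsf10b was called in 7 of 12 fits, Sesn1 in 6 and Plk2 in 4. On library totals 1 target rose (Cdkn1a) and 3 fell with Sik targeting and none passed with Lkb1 deletion, and without KT replicates 2 and 3 none passed in either. The summed level of the 19 targets was 567 to 779 CPM in KT, 1420 to 1460 in Lkb1-deleted and 988 to 3810 in Sik-targeted libraries, without overlap with KT. Abundant genes such as Cdkn1a weigh most in this sum, so it does not show a rise across the list. No Sfn promoter letters matched the p53 half-site in the 300-base window searched above. Only 8.36% of all promoters hold a match there, and bases further upstream were not searched. Its absence therefore says nothing of p53 control of Sfn.

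Of 14 epithelial genes none passed with Lkb1 deletion with edgeR or DESeq2 (median 0.42). With Sik targeting 5 rose and none fell (median 1.23), where 5.81% of genes rose, among them Krt18, Krt7 (2.13, SE 0.48, adjusted p 0.013), Krt19 (2.71, SE 0.61, adjusted p 0.0124) and the epithelial factor Elf3 (2.36, SE 0.50, adjusted p 0.00883). The count was 2 without KT replicate 2 and 4 to 6 without each other library, and on library totals 1 rose (Krt19) and 1 fell. Their summed level was 1210 to 1740 CPM in KT, 1890 to 3090 in Lkb1-deleted and 2220 to 6800 in Sik-targeted libraries. Of 8 tested squamous and basal genes (of 16 listed) none passed with Lkb1 deletion and 3 rose with Sik targeting: the desmosomal plakophilin Pkp1 (5.71, SE 0.80, adjusted p 0.00152; 78.5 ± 32.7 CPM, n = 5, against 1.40 ± 0.851, n = 4), Krt14 (4.12, SE 1.13, adjusted p 0.0297) and the cornified-envelope gene Sprr1a (2.76, SE 0.72, adjusted p 0.0246). Krt14 stood at 0 to 1.33 CPM in KT, 0 to 0.121 in Lkb1-deleted and 0.569 to 29.0 in Sik-targeted libraries. It passed the low-count filter through the Sik-targeted group and could only rise, so its call adds no evidence. The defining basal markers were at or near 0: Krt5 and Krt17 had 0 counts in all 8 Lkb1-deleted and Sik-targeted libraries, and Trp63 stood at 0 to 2.57 CPM there. With a library left out, Pkp1 and Elf3 were called in 12 of 12 fits, Krt7 and Krt19 in 11, Sprr1a in 8 and Krt14 in 7. Without KT replicates 2 and 3, 1 squamous gene passed and none of the epithelial genes did.

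Other levels moved with the groups in which Sfn was high. Summed leukocyte markers were 14.4 to 38.7 CPM in KT, 0.971 to 2.98 in Lkb1-deleted and 0 to 1.42 in Sik-targeted libraries, and macrophage markers were 80.3 to 1070, 13.5 to 15.6 and 12.9 to 36.2. Emr1 was at 0 in Lkb1-deleted and at most 0.236 CPM in Sik-targeted libraries. Of 3 tested leukocyte markers 2 fell with Lkb1 deletion and 3 with Sik targeting, and of 8 tested macrophage markers 3 and 4 fell (Marco, Chi3l3 and Ctss in both). Markers near 0 outside KT passed the low-count filter only through KT and could only fall, so their counts add no evidence. Tyrobp, for example, had 0 counts in all Lkb1-deleted and Sik-targeted libraries. The 12 alveolar type 2 markers together were 29100 to 103000 CPM in KT, 16500 to 42600 in Lkb1-deleted and 10700 to 34000 in Sik-targeted libraries; none passed with Lkb1 deletion and 6 fell with Sik targeting, among them Lyz2 (-4.83, SE 0.85, adjusted p 0.00426). Club markers fell in 1 and 5 of 6 genes and ciliated markers in 2 and 6 of 7 (1 ciliated gene rose with Sik targeting). Of all 13575 tested genes 75 fell with Lkb1 deletion and 890 with Sik targeting, where 1.16% and 12.4% passed in either direction. Summed ciliated markers did not fall: 71.3 to 151 CPM in KT, 134 to 229 in Lkb1-deleted and 112 to 312 in Sik-targeted libraries. Endothelial markers passed in neither comparison, but their sum set Lkb1-deleted libraries apart from each other: it was 1.09, 151 and 63.5 CPM in replicates 1 to 3, against 13.2 to 27.6 in KT and 13.8 to 28.2 in Sik-targeted libraries. Pecam1, which encodes the CD31 used in the sort, stood at 0 to 32.8 CPM in Lkb1-deleted libraries (median 31.4, against 5.72 in KT), 6 of 7 endothelial changes were above 0 (median 1.15), and 2 passed without Lkb1-deleted replicate 1. Fibroblast markers summed to 1.82, 414 and 80.7 CPM in the same replicates and to 30.2 to 402 in KT, and fell in 0 and 2 of 7 genes. Replicate 1, lowest in both sums, was the Lkb1-deleted library with most Sfn (234 CPM), and replicate 2, highest in both, the one with least (28.2). The Sfn change with Lkb1 deletion was 2.85, 4.40 and 4.14 without replicate 1, 2 and 3 in turn. The sgSik1 libraries did not show this order: replicate 3, lowest in both sums (13.8 and 16.5 CPM), had the least Sfn (22.7). The sgSik1-3 pair did show it. Replicate 1 was lower than replicate 2 in both sums (23.6 against 28.2 and 21.5 against 42.3 CPM) and higher in Sfn (310 against 118). With a library left out, the falls counted among leukocyte markers with Lkb1 deletion ranged from 0 to 3 and those among fibroblast markers with Sik targeting from 0 to 5. No erythroid marker was abundant enough to test. The part of these cell types in the 14-3-3 changes was not tested.

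Genes that tissue handling can switch on were also higher: of 21 in the dissociation list 9 rose with Lkb1 deletion (median 2.06) and 11 with Sik targeting (median 1.66), where 0.611% and 5.81% of all genes rose, and none fell. The Lkb1 count was 0 without KT replicate 2 or 3, 1 without KT replicate 1, 2 to 8 without each other library except sgSik1 replicate 1 (15), 2 on library totals and 18 with DESeq2. The Sik count was 6 without KT replicate 2 or 3, 9 to 13 without each other library, 4 on library totals and 15 with DESeq2. The summed level was 2800 to 6520 CPM in KT, 15900 to 24500 in Lkb1-deleted and 11000 to 29900 in Sik-targeted libraries, without overlap with KT. The Hsp40 cochaperone gene Dnajb1 was higher by 3.05 (SE 0.53, adjusted p 0.0179) with Lkb1 deletion and 2.18 (SE 0.48, adjusted p 0.0116) with Sik targeting, and Klf4 by 3.16 (SE 0.62, adjusted p 0.0322) and 2.63 (SE 0.58, adjusted p 0.0113). Ier3, the nearest neighbour of Ywhag, is on this list and rose by 2.54 (SE 0.46, adjusted p 0.00459) with Sik targeting. With a library left out, the calls of Dnajb1 were made in 10 and 11 of 12 fits, those of Klf4 in 6 and 12, and that of Ier3 in 12. Several of these genes are also targets of CREB or ERK signalling. Without KT replicates 2 and 3 none of the 21 passed, and the part of handling in the Sfn, Ywhag and Ywhaz changes was not tested.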

How the data were processed

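Tumours were dissociated with collagenase IV, dispase and trypsin at 37 degrees for 30 min. Sorting removed cells with CD45, CD31, Ter119 or F4/80 on them, and 30 ng of RNA per sample was amplified with the Ovation kit and sequenced as 100-base pairs, per the labels' protocols. Per the submitters' processing notes, STAR 2.4.2a, HTSeq (version not given) and the mm10 build were used. Which annotation and strand setting the counting used is not given in the sources used here. Whole-number counts for each symbol were deposited by the authors. The counts carry no molecule tags, so amplified copies cannot be told from molecules.

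The main test was the 2-sided F test of edgeR 4.0.16 (R 4.3.3) after TMM factors, the filterByExpr filter and robust quasi-likelihood fitting, Benjamini-Hochberg adjusted over all tested genes, with a threshold of 0.05. The comparisons by genotype came from 1 fit in 3 groups (13575 genes) and those by title from 1 fit in 4 groups (15303 genes), each over all 12 libraries. CPM used TMM effective sizes, and RPKM added exon lengths of GENCODE M21. Log2 CPM for likeness had a prior count of 2. Alternatives were DESeq2 1.42.0, no low-count filter, only the groups compared, the replicate block, each library left out, KT replicates 2 and 3 left out, and library totals (the last chosen after seeing the data).

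The members and 19 gene lists were chosen with earlier results of these data known. The text names the members, the genes most like them (8 for Sfn and 3 for each other member, by Pearson r), the targeted genes, and from each list up to 4 called genes with the smallest p or the 1 with the smallest p; for marker lists mainly counts and summed levels are given.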

Additional observations from a re-analysis of the deposited data

How the results depend on the processing

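The Sfn change kept its direction against KT under every alternative run, for Lkb1 deletion (2.85 to 4.40 with a library left out), Sik targeting (3.51 to 4.39), sgSik1 (2.88 to 3.77) and sgSik1-3 (4.00 to 5.39). Counts of called members with a library left out were 0 to 1, 1 to 3, 0 to 2 and 0 to 3 in these comparisons. Counts of all called genes were 13 to 242, 577 to 2655, 134 to 1269 and 52 to 1127, with 5 to 710 between Lkb1-deleted and Sik-targeted libraries and 0 to 4 between sgSik1-3 and sgSik1. The cause of these moves was not tested. Without KT replicates 2 and 3 no member passed (0 in each comparison with KT), and 3, 98, 1 and 11 genes did, with 9 between Lkb1-deleted and Sik-targeted libraries.

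In the same order of 6 comparisons (Lkb1 deletion, Sik targeting, Lkb1 against Sik, sgSik1, sgSik1-3, and sgSik1-3 against sgSik1), DESeq2 called 553, 2526, 345, 1445, 1296 and 6 genes, and no low-count filter gave 846, 3654, 698, 1783, 1440 and 44. Fitting only the groups compared gave 0 for Lkb1 against Sik, 1029 for sgSik1 and 1941 for sgSik1-3. Library totals gave 4499 for Sik targeting, 996 for sgSik1 and 1062 for sgSik1-3, where 1, 0 and 1 members were called. For sgSik1-3, DESeq2 and the fit of only the groups compared called 3 members (Sfn, Ywhag and Ywhaz) and no low-count filter called 2 (Sfn and Ywhag).

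Samples in different groups share replicate numbers. Of 15 same-numbered pairs 6 had a correlation of deviations over 0.1 (-0.335 to 0.249), and 3 of 12 libraries correlated best with their own number. Different-numbered pairs reached 0.335 (sgSik1 replicate 1 with sgSik1-3 replicate 2). With 2 sgSik1-3 libraries, their deviations from the group mean mirror each other, which forces opposite values. The numbers were not taken as pairs, but these values cannot exclude pairing. With the replicate block 49, 1050, 10, 254, 126 and 0 genes were called. Sfn was not called with Lkb1 deletion (3.55, adjusted p 0.0727, so 0 members) and Ywhaz was not with Sik targeting (1.38, adjusted p 0.069). With this block 3 and 10 dissociation genes and no p53 target rose, and Hdac4 was not called.

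On library totals the changes of Ywhab, Ywhae, Ywhah and Ywhaq were -0.27, -0.39, -0.65 and -0.34 with Lkb1 deletion and -0.48, -0.67, -0.45 and -0.55 with Sik targeting. Crtc3 (-0.01) and Mlxip (-0.16) with Lkb1 deletion, Mlxip with Sik targeting (-0.08) and Sfn between Lkb1-deleted and Sik-targeted libraries (0.11) also turned. Without KT replicates 2 and 3, Ywhah (-0.08) and Krt14 (1.82) turned with Lkb1 deletion. With a library left out, uncalled changes that turned ranged from -0.02 to 0.73 for Ywhab, -0.16 to 0.30 for Ywhah and -0.26 to 2.55 for the fibroblast gene Dcn with Lkb1 deletion. Between Lkb1-deleted and Sik-targeted libraries they ranged from -1.30 to 0.41 for Sfn, -0.48 to 0.26 for Ywhab, -0.08 to 0.13 for Ywhae and -0.18 to 0.27 for Ywhaq. Among 1319 alternative values of the named list genes 1314 kept their direction. Genes near 1 CPM, such as Krt14, rest on few counts, and depth limits their values.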
